A study of Mus musculus with 6 samples.

Results

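Pax5, the transcription factor that sets B cell identity, was followed with 6 other genes of the B lineage (Ebf1, Cd79a, Cd79b, Blk, Ms4a1, and Jchain) in subcutaneous mouse hepatoma tumors with or without sorafenib (Sora). The 7 genes were taken by their exact symbols from a table of 26167 genes in FPKM (fragments per kilobase of gene, scaled to the library total), and all 7 were present. Pax5 was chosen by its FPKM in these same tumors, which stood well above that of most other B cell markers, and the other 6 as companions in the lineage. The levels of the 7 genes are therefore a description and carry no test, and only the comparison of Sora-treated with control tumors was tested.

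The tumors grew from Hepa1-6 cells, a mouse hepatoma line that the sample labels write as Hep1-6, placed under the skin of female C57BL/6J mice of 6 to 8 weeks. Mice of the Sora group received this inhibitor of RAF, VEGFR, and other kinases at 10 mg/kg, ip, on days 9, 11, 13, and 15 after the cells. Control mice carried the same tumors without Sora, and the sources used here do not say whether they received a vehicle. RNA came from whole tumor tissue, with 3 control tumors (numbered 1, 3, and 4) and 3 Sora-treated tumors (2, 3, and 4). Values by tumor are given below in that order. No animal is named for any library, so p-values measure only the spread between these 6 samples.

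PAX5 and EBF1 are transcription factors that commit lymphoid precursors to the B lineage, and PAX5 also keeps genes of other lineages silent in B cells. Among the genes it activates are those of the B cell receptor, whose signal passes through CD79A and CD79B to kinases such as BLK. MS4A1, better known as CD20, lies on the surface of mature B cells, and the joining chain of Jchain links the immunoglobulin units that plasma cells release. In solid tumors, B cells and plasma cells gather with T cells in lymphoid aggregates or at the margin.

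Depth was even, from 31073830 to 36205814 reads per tumor, so 3 reads correspond to 0.0829 to 0.0965 CPM (counts scaled to the library total, not divided by gene length). Over all 16513 genes tested, 321 were higher and 222 lower in Sora-treated tumors, with a median log2 fold change of -0.00037. The 543 calls fell to 5 without Sora-treated tumor 4 and rose to 1145 without Sora-treated tumor 3.

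Pax5 was read at nearly the same level in every tumor. Control tumors gave 1.88, 1.94, and 2.003 FPKM for Pax5 (482, 531, and 596 reads), and Sora-treated tumors gave 1.90, 1.497, and 1.70 FPKM (485, 409, and 478 reads). Sora-treated tumor 3 was the lowest and control tumor 4 the highest, and the groups overlapped because Sora-treated tumor 2 lay above control tumor 1. The mean of 1.94 ± 0.0637 FPKM (SD, n = 3) in control tumors compared with 1.70 ± 0.201 FPKM (SD, n = 3) in Sora-treated tumors. The log2 fold change was -0.18 (SE 0.12, 95% interval -0.43 to 0.08), which did not pass edgeR's quasi-likelihood test (adjusted p = 0.48).

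None of the other members passed that test either. Of the 6 members that could be tested, 0 were called by edgeR, against 3.29% of all genes tested, and 0 had an unadjusted p under 0.05, against 17.2%. By limma voom, 0 of the 6 were called as well. DESeq2, which called 7.71% of the genes it gave an adjusted p, called 0 of the 4 members that got one, and gave none for Cd79a and Ms4a1. In none of the 6 did the groups stand apart, whereas the groups did not overlap for 22.2% of all genes tested. Of these 6 genes, 5 had a lower and 1 a higher mean in Sora-treated tumors, and their median log2 fold change was -0.18. In bulk RNA such as this, fewer cells of a type and less RNA per cell cannot be told apart.

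**Figure D1:**
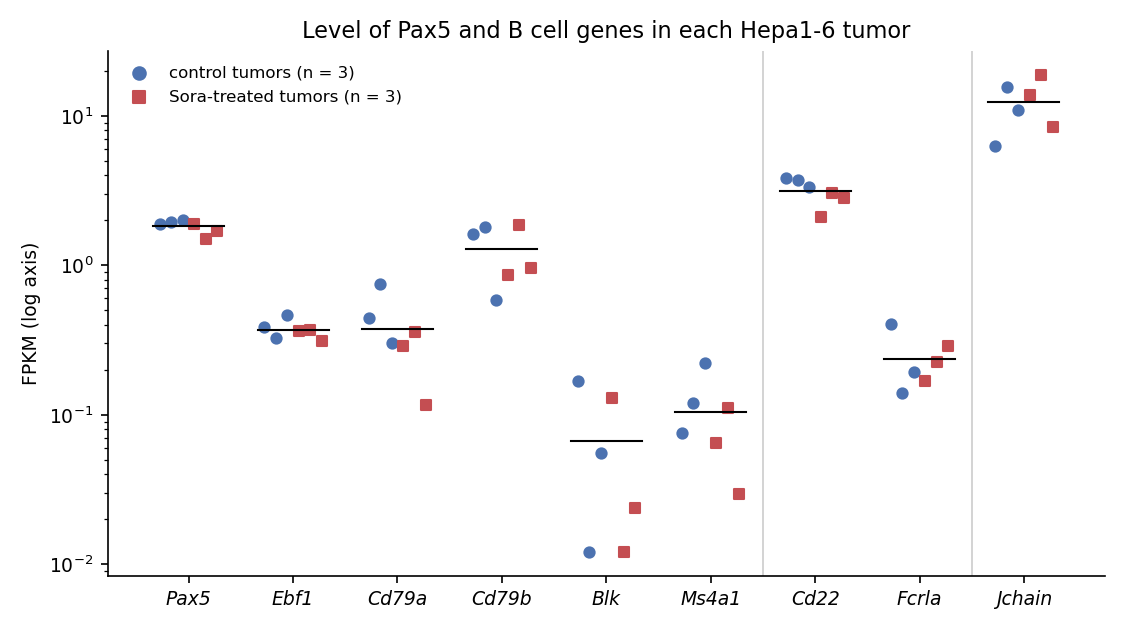
FPKM of the 7 genes and of 2 further B cell markers (Cd22 and Fcrla) in each tumor, on a log axis, with control tumors as circles, Sora-treated tumors as squares, and the mean of all 6 as a bar. Pax5 runs from 1.497 to 2.003 FPKM, while Blk runs from 0.0121 to 0.168 FPKM and Jchain from 6.24 to 18.9 FPKM.

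Ebf1, the partner that acts upstream of and together with Pax5, was read at a similar count. Control tumors gave 0.388, 0.327, and 0.465 FPKM for Ebf1, and Sora-treated tumors gave 0.361, 0.368, and 0.310 FPKM. Control tumor 4 was the highest and Sora-treated tumor 4 the lowest, with overlapping groups. Ebf1 had 423 to 673 reads per tumor, close to the 409 to 596 reads of Pax5, but its reads are divided by a far longer gene length, as described below. Its log2 fold change was -0.17 (SE 0.13, adjusted p = 0.56, edgeR), and ran from -0.27 without control tumor 3 to -0.04 without control tumor 4.

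The signaling chains of the B cell receptor had fewer reads than the transcription factors. For Cd79a, control tumors had 14, 25, and 11 reads (0.447, 0.748, and 0.303 FPKM), and Sora-treated tumors had 9, 12, and 4 reads (0.289, 0.360, and 0.117 FPKM). Control tumor 3 was the highest and Sora-treated tumor 4 the lowest, and Sora-treated tumor 3 lay above control tumor 4. Its log2 fold change of -0.96 had an SE of 0.56 and a 95% interval of -2.18 to 0.27, so at this depth neither no change nor a fall of over 4-fold lay outside it (adjusted p = 0.42, edgeR). Leaving out control tumor 3 gave -0.52, and leaving out Sora-treated tumor 4 or 3 gave -0.62 or -1.29.

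Cd79b, whose protein pairs with CD79A, was read at 1.61, 1.80, and 0.583 FPKM in the control group and at 0.863, 1.86, and 0.952 FPKM in the Sora group. The highest and the lowest of the 6 tumors in FPKM, Sora-treated tumor 3 and control tumor 4, each lay outside the range of the other group. Its log2 fold change was -0.11 (SE 0.45, adjusted p = 0.93, edgeR), and the sign turned when control tumor 1 (0.03), control tumor 3 (0.20), Sora-treated tumor 2 (0.09), or Sora-treated tumor 4 (0.03) was left out.

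Blk, a Src family kinase of B cells, was at the edge of detection. Control tumors had 13, 1, and 5 reads of Blk, and Sora-treated tumors had 10, 1, and 2 reads. Control tumor 1 and Sora-treated tumor 2 held most of its reads, and 3 of the 6 tumors lay at or below 3 reads. Blk did not reach 10 reads in 3 tumors and was not tested, and without that filter its adjusted p was 0.86 in edgeR and 0.87 by limma on log2(FPKM + 1).

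Ms4a1 was similarly sparse. Control tumors had 7, 12, and 24 reads of it (0.0751, 0.121, and 0.223 FPKM), and Sora-treated tumors had 6, 11, and 3 reads (0.0648, 0.111, and 0.0295 FPKM). Control tumor 4, which had the least Cd79b, had the most Ms4a1, and the groups overlapped. The log2 fold change of -1.02 had an SE of 0.61 and a 95% interval of -2.36 to 0.31 (adjusted p = 0.44, edgeR). The value was -0.67 without Sora-treated tumor 4 and -1.32 without control tumor 1, and without control tumor 3 or 4 or Sora-treated tumor 3 too few tumors reached 10 reads for a test.

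Jchain, the plasma cell member, was the most abundant of the 7 and the only one with a higher mean in Sora-treated tumors among those tested. Control tumors gave 6.24, 15.7, and 11.004 FPKM for Jchain, and Sora-treated tumors gave 13.9, 18.9, and 8.44 FPKM. Sora-treated tumor 3 was the highest and control tumor 1 the lowest, and the ranges crossed over most of their length. Group means were 10.98 ± 4.73 FPKM (SD, n = 3) and 13.7 ± 5.22 FPKM (SD, n = 3). The log2 fold change was 0.32 (SE 0.32, 95% interval -0.38 to 1.01, adjusted p = 0.68, edgeR). It was 0.02 without Sora-treated tumor 3, 0.03 without control tumor 1, and 0.69 without control tumor 3.

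The range over the 6 tumors was narrowest for the 2 transcription factors, which also had more reads than 4 of the other members. The highest CPM was 1.34 times the lowest for Pax5 and 1.44 times for Ebf1. The same ratio was 3.07 for Jchain, 3.19 for Cd79b, 6.36 for Cd79a, 7.26 for Ms4a1, and 13.6 for Blk. The coefficient of variation was 10.4% for Pax5 and 13.5% for Ebf1, where counting error alone gives about 4.49% and 4.51%. It was 38.0% for Jchain, where counting error gives about 3.47%, and 42.5% for Cd79b. For Cd79a (57.4%), Ms4a1 (64.0%), and Blk (98.3%), counting error alone gives 28.3%, 30.9%, and 43.3%.

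Each coefficient was also set against the genes within 2-fold of the same mean CPM. For Pax5, 45.0% of 3973 such genes varied less, which places it near the middle, and for Ebf1, 66.7% of 3947 did. The share was 71.7% of 2623 genes for Cd79a, 74.8% of 2620 for Ms4a1, 81.6% of 2289 for Cd79b, and 87.4% of 2737 for Blk. Jchain had the highest share, 98.6% of 4778 genes.

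Tumors did not rank alike for the 7 genes. Sora-treated tumor 3 had the lowest Pax5 but the highest Jchain and, in FPKM, the highest Cd79b. Sora-treated tumor 4 had the lowest Cd79a, Ms4a1, and Ebf1. Control tumor 4 had the highest Pax5, Ebf1, and Ms4a1 and the lowest Cd79b.

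**Figure D2:**
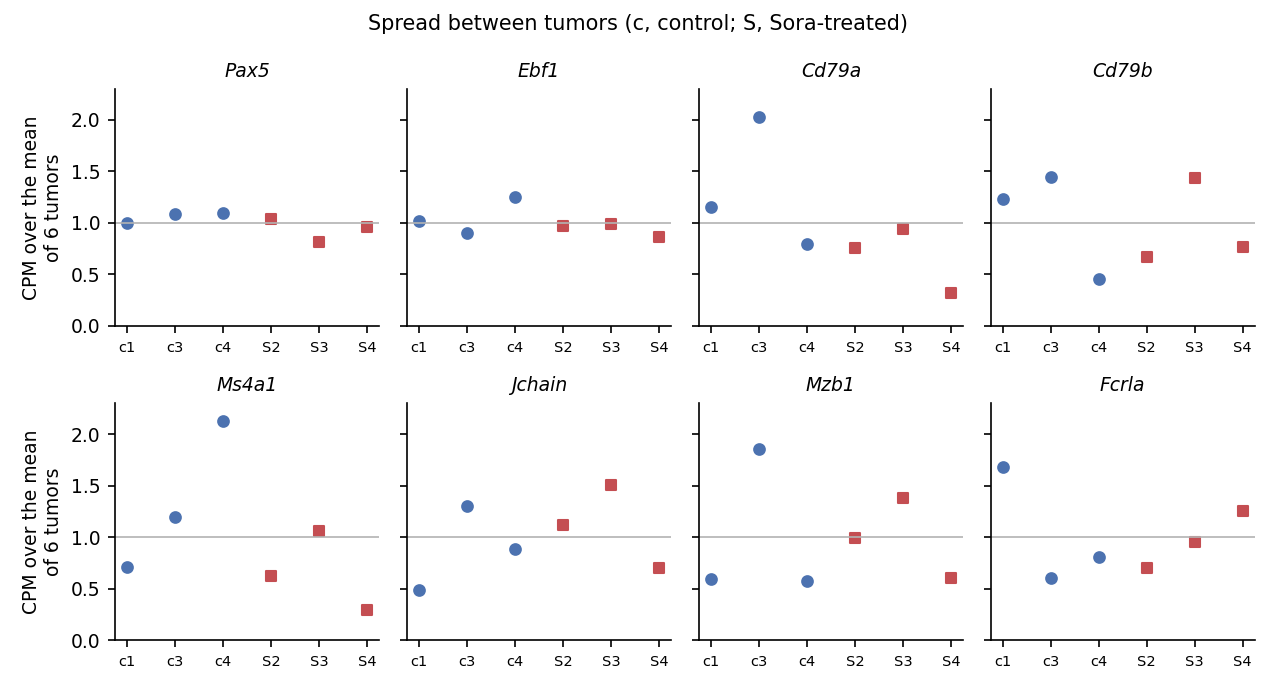
CPM of 6 members and of Mzb1 and Fcrla in each tumor (c, control; S, Sora-treated), divided by the mean of that gene over the 6 tumors, on a linear axis from 0. Pax5 and Ebf1 stay near the line at 1, with highest-to-lowest ratios of 1.34 and 1.44, while Cd79a and Ms4a1 drop lowest in Sora-treated tumor 4.

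By FPKM, the order of the 7 genes ran from Jchain (mean 12.4) through Pax5 (1.82), Cd79b (1.28), Cd79a (0.377), Ebf1 (0.370), and Ms4a1 (0.104) to Blk (0.0670). Only the steps from Jchain to Pax5 and from Ebf1 to Ms4a1 separated genes whose ranges over the 6 tumors did not overlap. Pax5 and Cd79b overlapped, since Cd79b reached 1.86 FPKM. The mean of Pax5 was 4.87 times the median of the other 6 means. Pax5 lay above 58.1% of all 26167 genes in mean FPKM, Jchain above 80.8%, and Blk above 32.7%.

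The place of Ebf1 in this order depended on gene length. Each FPKM follows exactly from the reads, the total, and 1 length per gene, and that length was 39939 bases for Ebf1. The union of its exons in GENCODE M21 spans 9756 bases, a ratio of 4.09, which is above 97.1% of the 19990 genes with both lengths. For Pax5 the lengths were 8220 and 8853 bases, a ratio of 0.928. With GENCODE lengths, the level of Ebf1 was 1.52 on the same scale, with a range of 1.27 to 1.91 that overlapped the 1.39 to 1.86 of Pax5. The ratio of Pax5 to the median of the other members then fell from 4.87 to 2.49. This comparison of lengths was chosen after the values were seen.

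**Figure D3:**
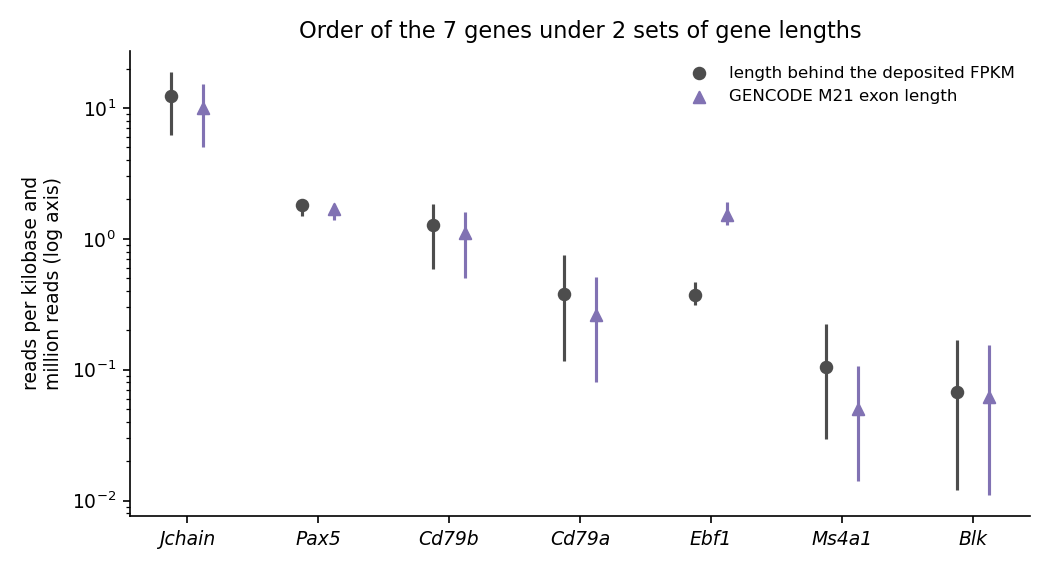
Mean level of the 7 genes over 6 tumors, in reads per kilobase scaled to the library total, on a log axis, with the length behind the deposited FPKM (circles) and with the exon length of GENCODE M21 (triangles); lines span the lowest to the highest tumor. Ebf1 moves from 0.370 to 1.52, next to Pax5 at 1.69, so that Cd79b and Cd79a each stand 1 place lower, and Ms4a1 and Blk trade places at the low end.

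Against the markers that define B cells, Pax5 was not accompanied by a matching level of most of them. This largely restates the choice of Pax5, which was picked for standing above most such markers, and carries no test. Within each tumor, the FPKM of Pax5 was 8.9998 to 57.7 times that of Ms4a1, 2.59 to 14.6 times that of Cd79a, and 4.603 to 13.9 times that of Fcrla. Cd79b came closer, at ratios of 0.806 to 3.43. Cd22, an inhibitory receptor, went the other way, with Pax5 at 0.490 to 0.901 times its level in every tumor. These ratios rest on the lengths behind the deposited FPKM. With GENCODE M21 lengths, the mean level was 0.0501 for Ms4a1 instead of 0.104, and 1.69 for Pax5 instead of 1.82, which widens the gap to Ms4a1.

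Fcrla, an intracellular Fc receptor-like protein of B cells, had 22, 8, and 12 reads in the control group and 9, 13, and 17 reads in the Sora group, with overlapping groups. Cd22 was read at 3.83, 3.72, and 3.33 FPKM in control and 2.11, 3.03, and 2.81 FPKM in Sora-treated tumors. All 3 control tumors lay above all 3 Sora-treated tumors for Cd22, but its log2 fold change of -0.44 had an adjusted p of 0.13 (edgeR). None of these 5 markers (Ms4a1, Cd79a, Cd79b, Cd22, and Fcrla) was at 0 in any tumor. Their summed level was 17.19 to 21.2 CPM in control and 11.4 to 17.13 CPM in Sora-treated tumors, most of it from Cd22. Without Cd22, which was set aside after its values were seen, the sum was 2.001 to 3.65 CPM and 1.82 to 3.34 CPM, and the groups overlapped.

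Plasma cell markers beside Jchain were mixed. Mzb1, a chaperone of immunoglobulin assembly, was read at 1.80, 5.33, and 1.71 FPKM in the control group and 2.95, 4.12, and 1.71 FPKM in the Sora group. The tumors numbered 3 of both groups were the highest for Mzb1, as they were for Jchain. Tnfrsf17, the receptor BCMA, had 2 to 10 reads per tumor, and Derl3 had 8 to 44. The syndecan Sdc1, which epithelial cells also carry, was far more abundant, at 49.8 to 58.2 FPKM in control and 64.0 to 75.5 FPKM in Sora-treated tumors. These groups did not overlap, and Sdc1 missed the threshold in edgeR (log2 fold change 0.38, adjusted p = 0.061), while DESeq2 called it. The immunoglobulin constant genes, 12 in the list, were not found by their symbols in the tables used here and so could not be analysed.

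Pax5 lies on mouse chromosome 4 with Melk on one side and Zcchc7 and Grhpr on the other. These 3 neighbors were read at higher levels than Pax5, with means of 12.2 FPKM for Melk, 10.9 FPKM for Zcchc7, and 42.6 FPKM for Grhpr. Their log2 fold changes lay between -0.05 and 0.12, and none was called. Within Pax5, GENCODE M21 places 2 long noncoding RNAs on the opposite strand, 5730488B01Rik and Gm12462, and a microRNA, Mir5120. None of these was found by its symbol in the tables used here. Of the 9479 distinct stretches of 50 bases in Pax5 transcripts, 665 (7.02%) also occur in transcripts of other genes on either strand, and 588 of these are shared with 5730488B01Rik. Use of strand in counting is not given in the sources used here, so reads of Pax5 and of these partners cannot be told apart over those stretches. The same share was 8.31% for Cd79a, 1.21% for Ms4a1, 0.288% for Jchain, and 0 for Ebf1, Cd79b, and Blk.

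The promoters of Pax5 and Cd79a are shown because Cd79a is a classical target of PAX5 and EBF1. The mean FPKM of Pax5, which was chosen for its level above such genes, was 4.82 times that of Cd79a. The promoters are RefSeq sequences of GRCm38.p6, from 250 bases before to 50 after the annotated start, and capitals mark matches to a searched motif.
Pax5 promoter, chr4:44710645-44710944, minus strand: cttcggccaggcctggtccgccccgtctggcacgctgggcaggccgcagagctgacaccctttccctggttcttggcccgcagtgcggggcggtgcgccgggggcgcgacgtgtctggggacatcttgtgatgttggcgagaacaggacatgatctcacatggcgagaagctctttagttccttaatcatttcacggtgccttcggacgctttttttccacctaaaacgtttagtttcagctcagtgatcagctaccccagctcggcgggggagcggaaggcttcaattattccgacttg
Cd79a promoter, chr7:24897247-24897546, plus strand: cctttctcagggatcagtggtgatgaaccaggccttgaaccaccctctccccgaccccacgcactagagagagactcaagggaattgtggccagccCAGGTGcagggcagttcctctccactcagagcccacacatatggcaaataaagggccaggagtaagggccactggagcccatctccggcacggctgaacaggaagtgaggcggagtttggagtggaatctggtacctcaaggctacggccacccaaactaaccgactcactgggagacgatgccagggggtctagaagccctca
The 5 motifs searched on both strands were CCCNNGGG (a core bound by EBF1), which occurs in 13.7% of all 32851 promoters of this length, ATGCAAAT (POU factors; 1.74%), CAGGTG (E proteins; 20.2%), GCGTGAC (part of the PAX5 site; 2.09%), and CCGGAA (ETS factors; 14.9%). No 2 of them overlapped in the printed windows. Promoters were given for 4 of the 7 members. The Cd79a window holds 1 CAGGTG at -154 and the Jchain window 1 CAGGTG at 6, counted from the start, and the windows of Pax5 and Ebf1 hold none of the 5. Only exact matches to these short strings were counted. A window without a match can therefore still hold a site of the same factor that differs from the string, and binding was not tested.

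The other B lineage genes, 83 in 6 lists, held 67 that are in the tables and 58 that could be tested. In mean FPKM, 40 of the 67 lay above Pax5 and 27 below (41 and 26 with GENCODE M21 lengths). Sora-treated tumors were lower for 39 of the 58 and higher for 19, with a median log2 fold change of -0.14. The test called 3 of the 58 (5.17%), all lower, where 1.34% of all genes tested were called lower and 1.94% higher. By unadjusted p under 0.05, 23 of the 58 passed (39.7%, against 17.2% of all genes). Groups stood apart in the lower direction for 15 of the 58 (25.9%, against 11.6% of all genes) and in the higher direction for 4 (6.90%, against 10.6%).

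The 3 called genes were Ikzf1, Ikzf3, and Cd83. Ikzf1 (Ikaros), a zinc finger factor of all lymphocytes, fell from 8.27 ± 0.859 to 6.03 ± 0.492 FPKM (SD, n = 3 each; log2 fold change -0.44, adjusted p = 0.023, edgeR). Ikzf3 (Aiolos), a relative that B cells and T cells use as they mature, fell from 2.67 ± 0.231 to 1.81 ± 0.278 FPKM (log2 fold change -0.55, adjusted p = 0.030, edgeR). Cd83, a surface protein of activated B cells and dendritic cells, fell from 14.5 ± 0.688 to 10.6 ± 1.21 FPKM (log2 fold change -0.44, adjusted p = 0.031, edgeR). In each of the 3, all control tumors lay above all Sora-treated tumors. All 3 lost the call when Sora-treated tumor 2 or 4 or control tumor 1 or 4 was left out. Over all 18 alternatives, adjusted p ran from 0.00071 to 0.31 for Ikzf1, 0.0015 to 0.32 for Ikzf3, and 0.0032 to 0.23 for Cd83, with each negative in every one.

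T cell and macrophage genes mostly had lower means in the same Sora-treated libraries. All 9 T cell genes tested had a lower mean in Sora-treated tumors, with 1 called (Cd8b1, log2 fold change -0.56, adjusted p = 0.018, edgeR), and their summed level was 265.8 to 296.3 CPM in control and 211.7 to 227.3 CPM in Sora-treated tumors. Cd3g (34.7 FPKM), Cd8a (19.2 FPKM), and Cd3e (17.2 FPKM) led the T cell list, and C1qb (302.2 FPKM), C1qa (300.6 FPKM), and C1qc (234.6 FPKM) led the macrophage list. With GENCODE M21 lengths, Cd8a (16.5), Cd8b1 (16.5), and Lck (11.9) led the T cell list instead. Of 10 macrophage genes, 9 had a lower mean, with 1 called (Mertk, log2 fold change -0.45, adjusted p = 0.031, edgeR), and their sum was 1898 to 2255 CPM and 1628 to 1872 CPM. None of the defining markers of T cells (Cd3d, Cd3e, and Cd3g) or macrophages (Adgre1, Cd68, and C1qa) was at 0. The call was lost in 5 of 18 alternatives for Cd8b1 (adjusted p 0.00016 to 0.21) and in 9 for Mertk (0.0018 to 0.27), leaving out 1 tumor among them. The part of T cells and macrophages in the lower Ikzf1, Ikzf3, and Cd83 was not tested.

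**Figure D4:**
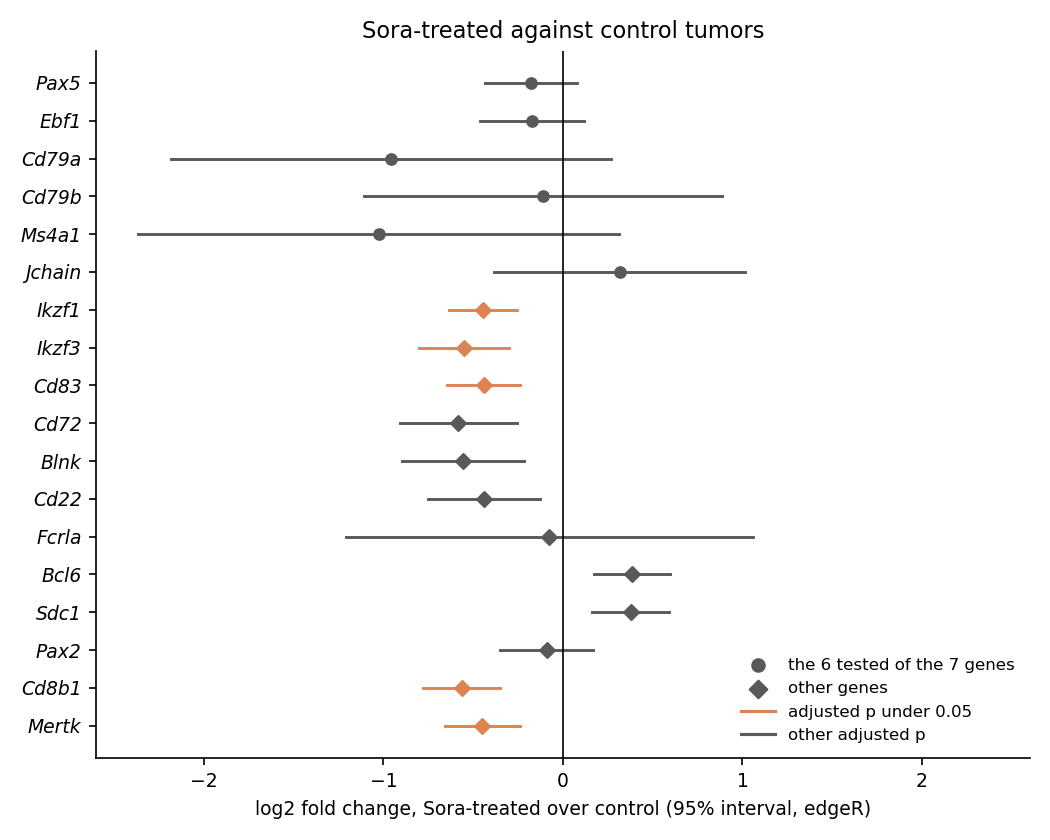
Log2 fold change of Sora-treated over control tumors (n = 3 each) with its 95% interval from edgeR, for the 6 tested members (circles) and for other genes (diamonds), with an adjusted p under 0.05 in orange. The intervals of all 6 members cross 0, while those of Ikzf1, Ikzf3, Cd83, Cd8b1, and Mertk lie below it. Those of Cd72, Blnk, and Cd22 also lie below 0 and those of Bcl6 and Sdc1 above it, though edgeR called none of these. The intervals are not adjusted for the number of genes tested.

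By role, the B lineage transcription factors other than Pax5 and Ebf1 split evenly, 7 higher and 7 lower of 14 tested, with 2 called and a median of 0.02. The most abundant were Id3 (75.6 FPKM), Irf8 (47.7 FPKM), and Tcf3 (21.7 FPKM), the gene of the E proteins that act with EBF1 and PAX5. Of the 14, 6 had a lower mean FPKM than Pax5, among them Pou2af1 (0.761), Spib (0.359), Bcl11a (0.0960), and Bach2 (0.0669). Bach2 had more reads than those 3, at 76 to 173 per tumor, and its FPKM rests on a length of 57622 bases, against 9940 bases of exons in GENCODE M21. With GENCODE lengths its level was 0.388, below Pou2af1 (0.766) and Spib (0.448) and above Bcl11a (0.0629). Bcl6, the repressor of germinal center B cells, had a log2 fold change of 0.38 with groups that did not overlap, and missed the threshold in edgeR (adjusted p = 0.057), while DESeq2 called it.

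Genes of B cell receptor signaling leaned lower. Of 19 tested, 18 had a lower mean in Sora-treated tumors and 1 a higher mean, with a median of -0.24, but 0 were called by edgeR. The most abundant by FPKM were the phosphatase Ptpn6 (38.4 FPKM), the adaptor Bcl10 (35.8 FPKM), and the adaptor Pik3ap1 (18.5 FPKM), all of which other blood cells also use. With GENCODE M21 lengths, Lyn (22.2) lay above Bcl10 (15.3) and Pik3ap1 (15.2). Pik3ap1 (log2 fold change -0.37, adjusted p = 0.053), the inhibitory receptor Cd72 (-0.58, adjusted p = 0.058), and the adaptor Blnk (-0.56, adjusted p = 0.078) came nearest to the threshold in edgeR. DESeq2 called all 3. These 3 were singled out after their values were seen.

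Among mature B cell surface genes, 9 of 12 tested had a lower mean and 3 a higher one, with Cd83 the 1 call. Cd37 (17.6 FPKM), Cd83 (12.6 FPKM), and Cd40 (12.3 FPKM) led by FPKM. With GENCODE M21 lengths, H2-DMb2 (9.28) lay above Cd40 (6.40) in this list. Of its 13 genes, 7 had a lower mean FPKM than Pax5, among them Fcer2a (0.101), Cxcr5 (0.137), and Tnfrsf13c (0.0913), and 6 a higher one, among them Tnfrsf13b (2.31), the receptor TACI of B cells and plasma cells. Of the precursor genes, Sox4 (53.5 FPKM), Cd93 (12.9 FPKM), and Il7r (5.39 FPKM) led, and the recombination and surrogate light chain genes in the tables, Rag1, Dntt, and Vpreb3, lay between 0.000799 and 0.0445 FPKM. The test called 0 of 4 in this list. Germinal center genes gave 0 calls of 5, led by S1pr2 (11.1 FPKM), Fas (8.89 FPKM), and Bcl6 (5.22 FPKM). The plasma cell list gave 0 calls of 5, led by Xbp1 (94.8 FPKM), Sdc1 (63.3 FPKM), and Prdm1 (11.5 FPKM).

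**Figure D5:**
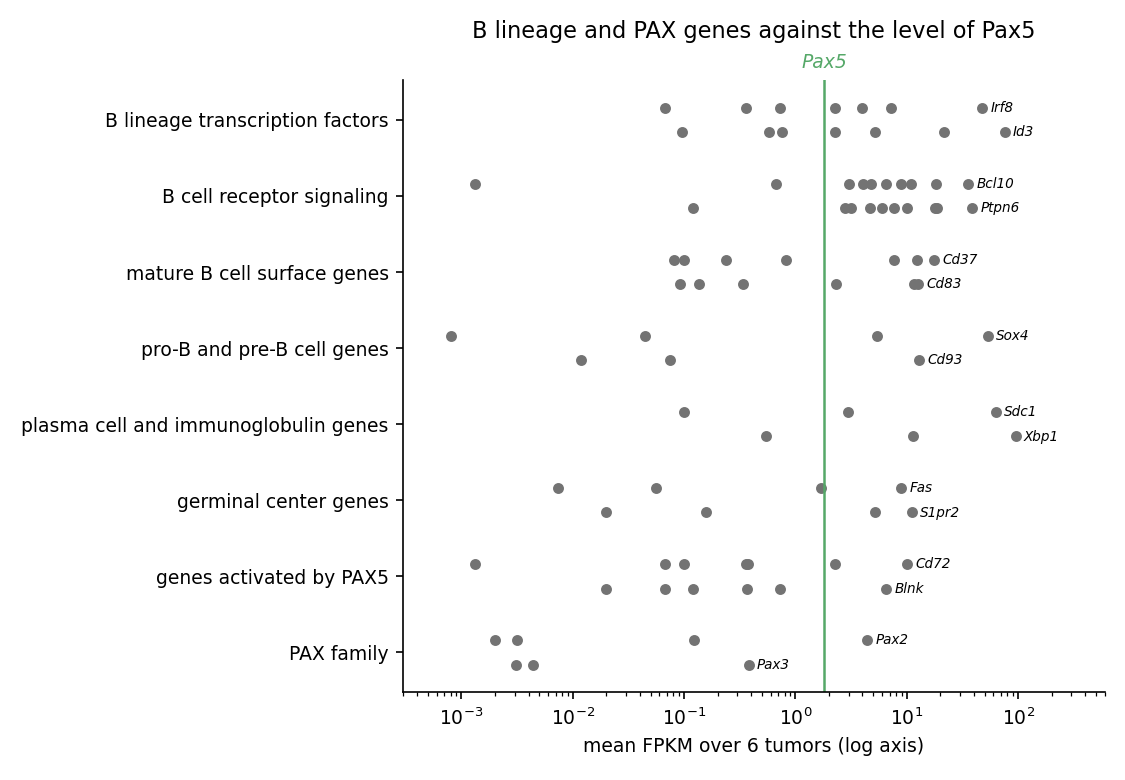
Mean FPKM over the 6 tumors of each gene of the 6 B lineage lists, of genes known to be activated by PAX5, and of the PAX family, on a log axis, with the level of Pax5 (1.82) as a line. Of the 67 B lineage genes, 40 lie to the right of Pax5 and 27 to the left, and of the genes activated by PAX5, 10 of 13 lie to the left. Pax5 was chosen for its level above most other B cell markers, so these counts are a description and carry no test.

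Genes known to be activated by PAX5 in B cells were mostly below Pax5 here, which its choice for a level above most B cell markers made likely. Of 13 in the tables, 10 had a lower mean FPKM than Pax5, as did 58.1% of all 26167 genes. The 3 above Pax5 were Cd72 (10.01 FPKM), Blnk (6.49 FPKM), and Ikzf3 (2.24 FPKM). Of the 10 that could be tested, 8 had a lower mean in Sora-treated tumors and 2 a higher one, with a median of -0.36 and Ikzf3 as the 1 call. Cr2, the complement receptor, was listed at 0 in 5 tumors and at 0.00791 FPKM in Sora-treated tumor 4. Genes known to be repressed by PAX5 split 4 and 4, with a median of 0.05 and 0 calls by edgeR of 8. They were led by Xbp1, Csf1r (75.1 FPKM), and Ccl3 (21.5 FPKM), and all but Flt3 (0.219 FPKM) lay above Pax5.

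Among its own family, Pax5 stood second to Pax2, a factor of kidney and midbrain development that was read at 4.41, 4.24, and 4.94 FPKM in control and 4.09, 4.98, and 3.63 FPKM in Sora-treated tumors. Pax5 was 0.3003 to 0.470 times Pax2 within each tumor. Pax3 (0.381 FPKM) and Pax8 (0.123 FPKM) followed, and the other 4 in the tables lay at or below 0.00437 FPKM. Pax2, Pax3, and Pax8 could be tested, and 0 were called by edgeR. Ebf2 (0.353 FPKM), Ebf3 (0.195 FPKM), and Ebf4 (0.0363 FPKM) likewise gave 0 calls of 2 tested.

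The 5 genes whose levels followed Pax5 most closely over the 6 tumors were Xrcc2, Gle1, Tmem223, Tnfsf11, and 1700048O20Rik, by Pearson correlation of log2(CPM + 1) among the 14114 genes whose mean reached 1 CPM. The correlations ran from 0.967 to 0.991 over n = 6 tumors, and 48 genes (0.34%) passed 0.9. Each of the 5 was, like Pax5, lowest in Sora-treated tumor 3, and none was called. None is a member of the B lineage lists. The 6 points share their 2 treatment groups and the libraries, and 1 tumor can set such a value.

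Factors that attract B cells or keep them alive gave 0 calls of 10 by edgeR, with 8 lower, 2 higher, and a median of -0.22. Ltb (26.5 FPKM), Cxcl12 (13.7 FPKM), and Ccl21a (9.27 FPKM) led. The 2 with a higher mean were the chemokines Ccl21a (log2 fold change 0.73, adjusted p = 0.071, edgeR) and Cxcl13 (0.67, adjusted p = 0.18, edgeR), and for both the groups did not overlap. Tnfsf13b, the survival factor BAFF, was read at 2.90, 3.93, and 2.52 FPKM in control and 2.601, 2.02, and 2.80 FPKM in Sora-treated tumors, with overlapping groups.

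Cell types that can hold Pax5 or other B lineage transcripts were followed by their own genes. Plasmacytoid dendritic cell genes gave 0 calls of 9, with a summed level of 600.1 to 689.7 CPM in control and 523.8 to 672.6 CPM in Sora-treated tumors, led by Bst2 (228.3 FPKM), Ly6d (26.9 FPKM), and Tcf4 (8.46 FPKM). Their 4 defining markers, none at 0 in all tumors, summed to 2.65 to 2.82 CPM and 2.45 to 4.08 CPM. Type 17 and gamma delta T cell genes gave 0 calls of 4 (sums of 206.5 to 221.6 CPM and 154.4 to 201.8 CPM), led by Maf (31.9 FPKM), Ccr2 (14.1 FPKM), and Sox13 (1.61 FPKM). Stromal and fat cell genes, led by Dcn (770.6 FPKM), Col1a1 (320.3 FPKM), and Col1a2 (297.2 FPKM), gave 1 call of 10, the lipase Lpl (log2 fold change -0.51, adjusted p = 0.023, edgeR), with sums of 6230 to 6508 CPM and 4631 to 5750 CPM. Hepatoma genes, led by Alb (1306 FPKM), Afp (408.0 FPKM), and Fgb (61.5 FPKM), gave 3 calls of 10, with Ttr (log2 fold change -2.15, adjusted p = 0.0055) and Alb (-0.55, adjusted p = 0.041) lower and Apoa1 (1.03, adjusted p = 0.047) higher in edgeR. Of 18 alternatives, the call was lost in 12 for Apoa1 (adjusted p 0.00023 to 0.31), 8 for Alb (4.2e-05 to 0.27), 6 for Lpl (2.4e-05 to 0.24), and 1 for Ttr, and DESeq2 did not call Apoa1 (adjusted p = 0.063). Gene-level values of whole tumors do not show which cells carried the reads of Pax5, and this was not tested.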

How the data were processed

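Total RNA of 6 tumors was sequenced on the BGISEQ-500 platform. The authors deposited whole read counts per gene, not normalized, for 5 tumors in the table used here, and FPKM for all 6, which equal count over gene length and library total. The paper names Bowtie2, GRCm38, and an expectation maximization step, whereas the submitters' processing notes name fastp, HISAT2, HTSeq, and GRCm39. Annotation, strand, and filters are not given in the sources used here, so measured genes carry no coordinates. Those printed for promoters are of the RefSeq windows on GRCm38.p6. Gene symbols newer than GRCm38.p6 are present.

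For Sora-treated tumor 4, whole counts were worked back from FPKM with the lengths that the other tumors give, and the same step returned every deposited count of the other 5. In tumor 4, 342 genes (512 reads) without a length stayed at 0.

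The 16513 genes that reached 10 counts in 3 or more tumors were tested with edgeR 4.0.16 under R 4.3.3 (glmQLFit, TMM, robust=FALSE), and p-values were adjusted over all of them by Benjamini-Hochberg. The threshold was an adjusted p under 0.05. The alternatives were DESeq2 1.42.0, limma 3.58.1, other scalings and filters, FPKM with a pseudocount of 1 or 0.1, a replicate block, and leaving out each tumor. The tests were tried on simulated data. CPM are scaled by TMM. Intervals cover the spread between tumors and floors of 3 reads cover counting error only.

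By the rule, the genes to name were the members, each list gene past the threshold, the 3 most abundant of each list, the defining B cell markers, the 5 genes most like Pax5, and its nearest neighbors. A few of these genes are not reported here. Other list genes named in the text, such as Bach2, Cd72, Tnfrsf13b, Pax3, and Cxcl13, fall outside this rule and were chosen after their values were seen. The members and lists were chosen with earlier results of these data known. Lists came from general knowledge. Promoters came from RefSeq.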

Additional observations from a re-analysis of the deposited data

How the results depend on the processing

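No member was called in any of the 18 alternatives. Those that gave a log2 fold change were 18 for Pax5, Cd79b, and Jchain, 16 for Ebf1, 15 for Cd79a, and 12 for Ms4a1. For Cd79a and Ms4a1 they include DESeq2, which gave no adjusted p. Blk had an adjusted p in 2 alternatives. The log2 fold change of Pax5 stayed between -0.30 and -0.09. The count over all genes (543) and over the B lineage lists (3) was 1194 and 10 with DESeq2 and 1147 and 10 without a filter. It was 286 and 0 by limma on log2(FPKM + 1) after the filter, 252 and 0 on log2(FPKM + 0.1), and 0 and 0 on log2(FPKM + 1) over all genes. With robust=TRUE the B lineage count was 7. Leaving out 1 tumor gave 5 (without Sora-treated tumor 4) to 1145 (without Sora-treated tumor 3) over all genes and 0 (also without control tumor 1) to 11 (without Sora-treated tumor 3) over the B lineage lists.

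With a replicate block, 125 genes and 0 B lineage genes were called, the log2 fold change of Cd79b was 0.35, and that of Jchain was -0.051. The numbers share no animal in the labels. Deviations of same-numbered tumors correlated at -0.03 and -0.07, and those of other pairs at -0.16 to 0.26. Only the numbers 3 and 4 occur in both groups, so these values cannot settle whether the numbers pair the tumors. The log2 fold change of Cd79b was 0.00256 by limma voom and ran from -0.53 to 0.20 as single tumors were left out. The cause of these moves was not tested.

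The level of Pax5 over the median of the other members was 4.87 in FPKM, 15.3 in CPM, which is not divided by length, and 2.49 with GENCODE M21 exon lengths. Over the control tumors alone it was 4.34 and over the Sora-treated tumors alone 5.65. Blk, Ms4a1, and Cd79a had 1 to 25 reads per tumor, which leaves wide counting error, and they varied between tumors by more than it.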
